A study of Homo sapiens with 6 samples.

Results

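Amino acid transporters are the membrane proteins that carry amino acids into cells, out of cells and across the lysosomal membrane. The genes described here are 32 solute carrier (SLC) genes given as a list of symbols, and each matched exactly 1 of the 60616 gene identifiers in the tables. They were sorted by family, by substrate and by whether the protein pairs with the heavy chain SLC3A2. The cells were 12Z, a wild-type line derived from human endometriosis and made immortal, and their RNA was measured by sequencing. The treated group received frankincense extract, a preparation of Boswellia resin dissolved in DMSO, at 70 ug/mL and was kept with it for 12 h. The vehicle group received the solvent DMSO, and both groups grew in the same medium with charcoal-stripped serum. Each group had 3 libraries, made from 1.5 ug of total RNA each. The 12Z cells are 1 line, and the labels do not say that replicates were separate cultures, so the p-values rest on a spread between libraries that may be technical.

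Several of these carriers work as exchangers, which let one amino acid in only as another leaves, and others use the sodium or proton gradient to concentrate their substrate. SLC3A2 (CD98 or 4F2hc) does not itself form the transport path: it binds SLC7 light chains through a disulfide bond and brings them to the cell surface. Through these carriers cells take up leucine, glutamine, arginine and cystine, which feed protein synthesis, glutathione synthesis and the mTORC1 growth pathway. A further set sits on the lysosome, where it releases or senses amino acids from broken-down protein.

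Most of the expressed transporter genes were higher after frankincense, led by SLC3A2. Of the 32 genes, 28 passed the filter on low counts and were tested, each of them above the filter's level in all libraries of both groups. At an adjusted p under 0.05 in edgeR's quasi-likelihood test, 20 of the 28 rose (71.4%), 3 fell and 5 were not called. Over all 16719 genes tested, 62.9% were called, 31.9% higher and 31.0% lower, so that a call alone was common in these libraries. A rise of at least 2-fold was seen in 9 of the 28, against 5.14% of all genes tested. The median log2 change was 0.85 over the 28 and -0.0016 over all genes tested. The list was chosen with earlier results of these data known, so these counts describe it and are no test of it. Of 30 transporter genes not on the list, 7 could be tested and 2 of these rose. Counts scaled to library size did not overlap between the groups for 24 of the 28, against 67.5% of all genes tested. That share applies wherever groups are said below not to overlap, and no such share was computed in TPM. In bulk RNA, fewer cells of a type and less RNA per cell cannot be told apart.

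**Figure D1:**
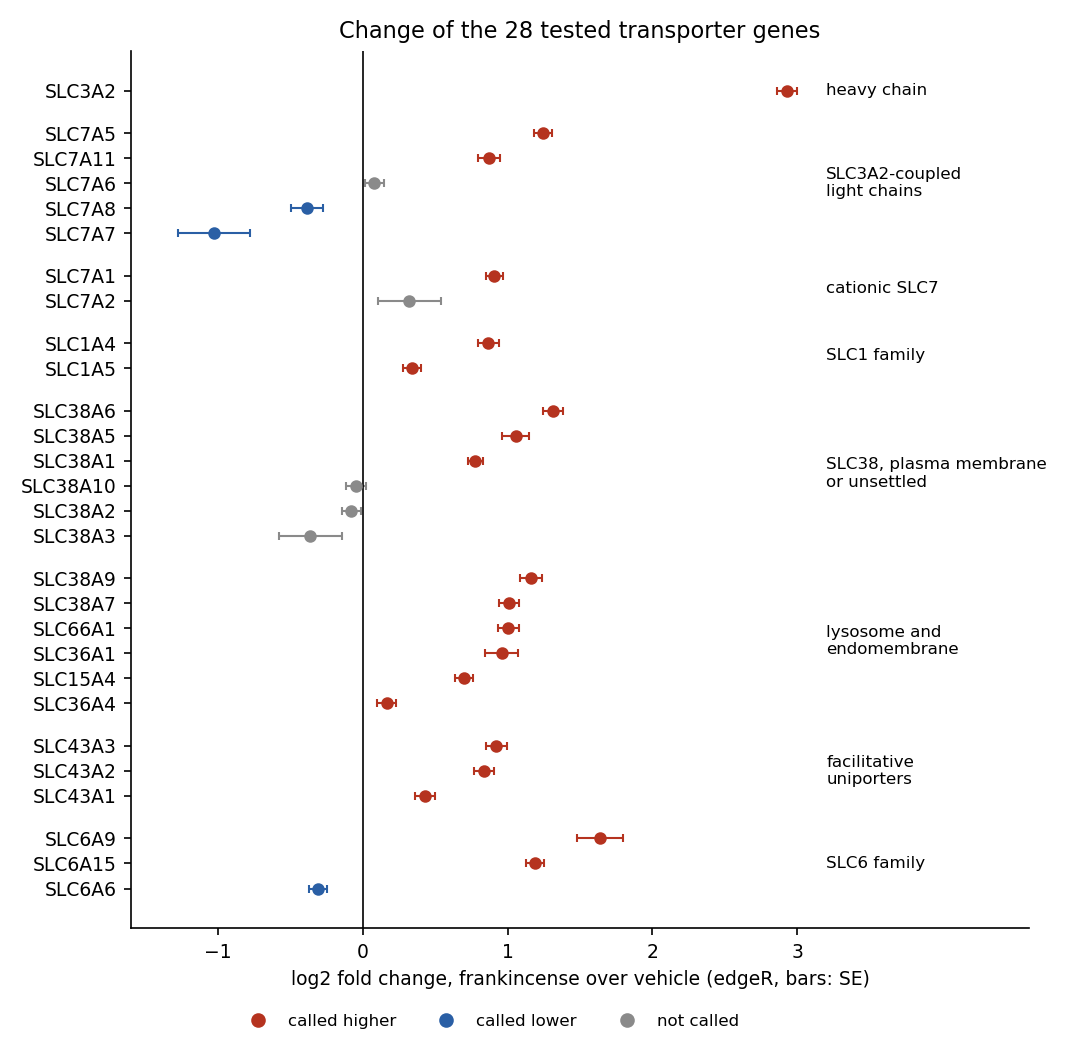
Log2 fold change of each of the 28 tested transporter genes, frankincense over vehicle, from edgeR on counts of 3 libraries a group, with bars for the standard error, grouped by class. SLC3A2 lies furthest to the right at 2.93 and its light chains spread from -1.03 to 1.24. All 6 genes of the lysosome and endomembrane class, which leaves out SLC38A10, lie to the right of 0.

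Libraries held 22615150 to 27615196 expected counts, and 3 counts in 1 library corresponded to 0.109 to 0.133 CPM (counts scaled to a common depth), a floor for counting error alone. Levels are given as TPM, which is per transcript length and can be compared between genes, and changes as log2 fold changes from counts with their standard error. The scales differ: on log2(TPM + 1) the tested genes had a median change of 0.196, and mitochondrially encoded genes took 14.0% to 14.7% of counts in vehicle libraries and 9.50% to 11.0% in treated ones. Frankincense replicate 3 stood apart. It had the highest TPM of its group in 26 of the 28 tested transporter genes, with a median log2 excess of 0.30 over its group's other libraries, and of 0.14 in scaled counts. The difference was not limited to these genes. Over genes tested, chi-square per degree of freedom was 13.83 and 11.94 against frankincense replicates 1 and 2, and 4.1 between those. The share of all genes in which replicate 3 was highest was not computed. Without that library 19 of the 28 were called higher and 5 lower.

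SLC3A2 (ENSG00000168003, GRCh38 chromosome 11, 62856102 to 62888875, plus strand) had the largest rise of the 28 genes tested. Its level was 138, 137 and 132 TPM in vehicle replicates 1 to 3 and 981, 1001 and 1206 TPM in frankincense replicates 1 to 3. Every treated library was thus far above every vehicle library. The means were 135 ± 3.10 and 1062.5 ± 125 TPM (SD, n = 3), and the log2 fold change was 2.93 ± 0.069, or 7.60-fold (edgeR adjusted p = 3.3e-13). SLC3A2 made up 16.4% ± 0.55 of the summed TPM of the 32 genes in vehicle and 47.4% ± 0.58 after treatment. An exact permutation test of 3 against 3 libraries cannot give a two-sided p below 0.1, which is what this share gave.

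The light chains that pair with SLC3A2 did not move together. SLC7A5 and SLC7A11 rose, SLC7A7 and SLC7A8 fell, and SLC7A6 was not called. SLC7A5 (LAT1, chromosome 16, 87830023 to 87869488) exchanges large neutral amino acids such as leucine. It stood at 32.3, 31.1 and 29.8 TPM in the vehicle libraries and at 81.4, 82.0 and 97.5 TPM in the treated ones, a log2 change of 1.24 ± 0.060 (edgeR adjusted p = 3.2e-10). The groups were clearly separate. Reads of SLC7A5 may be shared with its pseudogenes SLC7A5P1 and SLC7A5P2, whose highest values in any library were 1.15 and 2.22 TPM.

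SLC7A11 (xCT, chromosome 4, 138164097 to 138242349) takes up cystine in exchange for glutamate and so supplies cysteine for glutathione. Its values were 17.0, 15.7 and 17.4 TPM under vehicle and 32.8, 31.6 and 42.3 TPM under frankincense, with no overlap. The log2 change was 0.87 ± 0.075 (edgeR adjusted p = 2.6e-07). SLC7A11 kept a similar part of the light chain mRNA, 22.5% ± 1.10 against 22.1% ± 1.2 (exact permutation p = 0.7).

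SLC7A8 (LAT2), the other large neutral exchanger, went from 4.49, 4.49 and 4.59 TPM to 4.09, 3.86 and 3.2 TPM, and fell by 0.39 ± 0.11 on the log2 scale (edgeR adjusted p = 0.0073). On log2(TPM + 1) its change was -0.23 and was not called (limma adjusted p = 0.093). The ratio of SLC7A5 to SLC7A8 TPM was 6.87 ± 0.35 in vehicle and 23.9 ± 5.75 after treatment. SLC7A7 (y+LAT1), which exports cationic amino acids in exchange for neutral ones, was near the lower end of what these libraries measure. It had 0.94, 1.22 and 1.33 TPM under vehicle and 0.69, 0.63 and 0.81 TPM under frankincense, and fell by 1.03 ± 0.25 (edgeR adjusted p = 0.0024).

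SLC7A6 (y+LAT2), a light chain of similar function, depended on the scale. It had 21.3, 20.6 and 20.4 TPM in vehicle and 36.4, 26.7 and 36.5 TPM in treated libraries, while its scaled counts overlapped, at 73.6, 66.1 and 73.6 CPM against 78.2, 67.6 and 79.5 CPM. The count-based log2 change was 0.080 ± 0.068 (edgeR adjusted p = 0.32), and it was 0.64 on log2(TPM + 1) (limma adjusted p = 0.0015). Without frankincense replicate 2 the count-based change was 0.16 and was called (edgeR adjusted p = 0.048). The mean transcript length that RSEM assigned to SLC7A6 went from 4247 ± 313 to 3386 ± 281 bases (exact permutation p = 0.1). Of its 7588 exonic bases, 3371 overlap SLC7A6OS on the opposite strand, and no source used here says that the kit marks strand, so reads of overlapping genes such as these cannot be told apart with certainty.

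**Figure D2:**
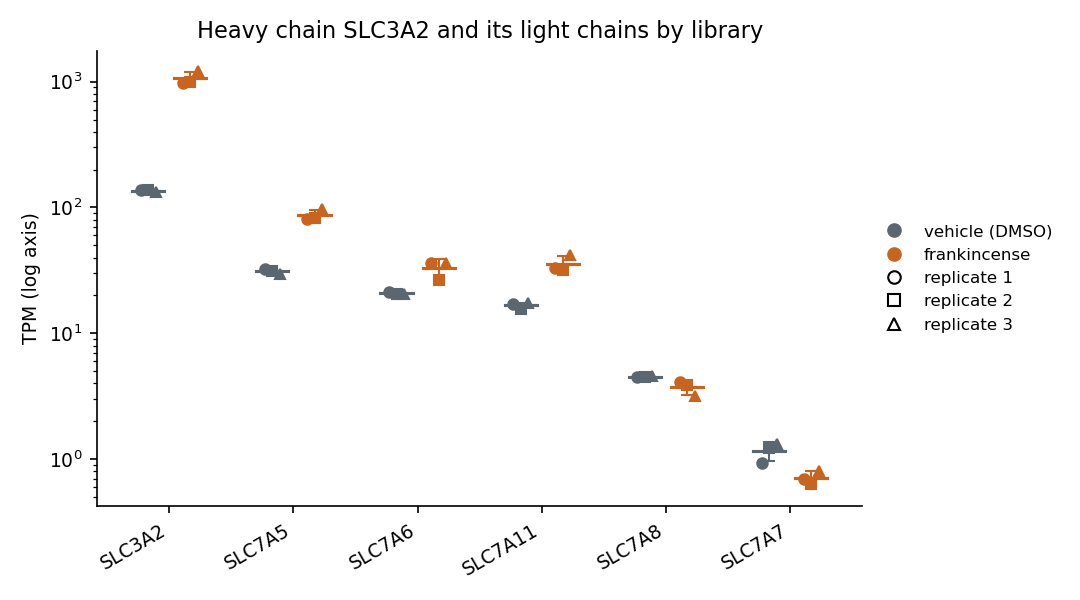
TPM on a log axis of SLC3A2 and its 5 light chains in each of the 3 vehicle and 3 frankincense libraries, with the mean and SD. SLC3A2 moves from 132 to 138 TPM up to 981 to 1206 TPM, SLC7A5, SLC7A11 and SLC7A6 sit higher and SLC7A8 and SLC7A7 lower after treatment.

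Heavy chain mRNA therefore grew faster than light chain mRNA. The summed TPM of the 5 light chains was 74.2 ± 1.60 in vehicle and 160.2 ± 18.2 after treatment, 2.16 times as much. The ratio of SLC3A2 to this sum was 1.81, 1.87 and 1.80 in the vehicle libraries and 6.31, 6.91 and 6.69 in the treated libraries, a log2 difference of 1.86 (exact permutation p = 0.1, the smallest the design allows). Within the light chains, SLC7A5 went from 41.9% ± 1.11 to 54.4% ± 2.14 of the sum, SLC7A6 from 27.99% ± 0.25 to 20.7% ± 2.53, and SLC7A8 from 6.10% ± 0.18 to 2.36% ± 0.50. Groups did not overlap for these 3 shares.

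**Figure D3:**
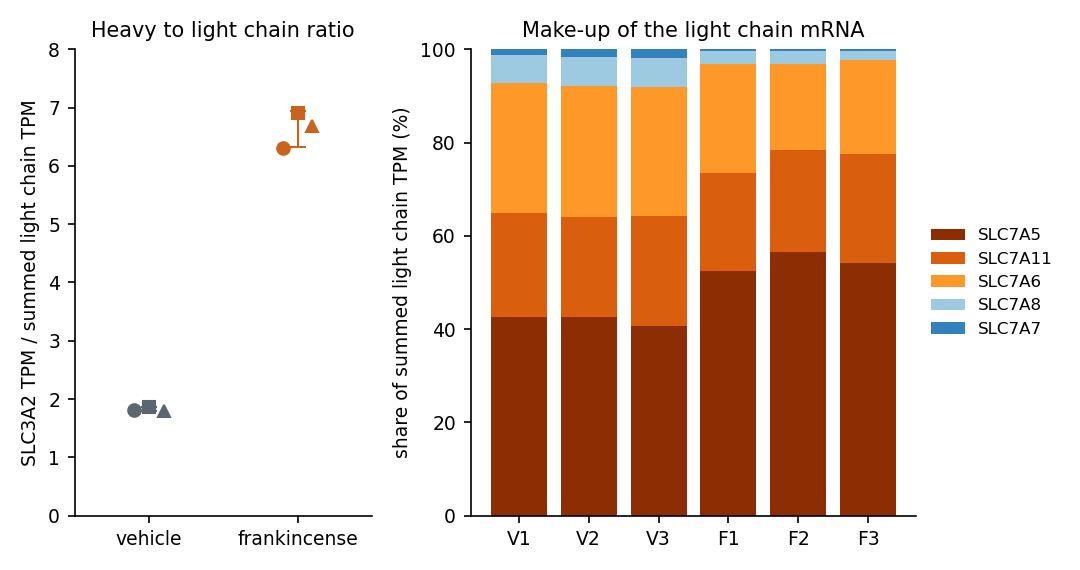
Left, ratio of SLC3A2 TPM to the summed TPM of its 5 light chains in each library (circle, square and triangle for replicates 1, 2 and 3), with SD bars; right, share of each light chain in that sum, in percent, for vehicle (V1 to V3) and frankincense (F1 to F3) libraries. The ratio is 1.80 to 1.87 in vehicle and 6.31 to 6.91 in treated libraries, and SLC7A5 takes the largest share in all 6.

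Promoter sequences of some members that rose are printed to show which known response element letters stand near their start sites. RefSeq windows (GRCh38.p14, 250 bases before to 50 after a start) were found for 26 of the 32 genes, 47 windows in all. No window was found for SLC7A11, SLC6A6, SLC38A3, SLC6A15, SLC43A3 and SLC7A2. These genes were not searched, so nothing is known here of matches in them. For 40 of the 47, the last 30 bases lay in a GENCODE 29 transcript of the gene on the same strand. Both strands were searched for TGATGNAAN, the C/EBP-ATF response element bound by ATF4, for TGACNNNGC, the core of the antioxidant response element bound by NRF2, and for TCACGTGA, an E-box of the kind in lysosomal genes. The first was in 6 of the 47 windows and in 3.61% of all 35116 promoter windows, the next in 9 and 13.35%, and the E-box in 1 and 0.98%. Matches were not limited to genes that rose: 3 of the 9 windows with the antioxidant core belong to SLC7A7, which fell, SLC7A6, which was not called, and SLC1A3, which had 3 counts over the vehicle group and was not tested. The SLC1A3 gene also has 1 of the 6 windows with the C/EBP-ATF letters. These matches are descriptions of letters, not of binding. The windows below are from the gene's own strand with the matches in capitals. The SLC3A2 window lies at chr11:62881632-62881698 on the plus strand, with its match 37 bases before one start. That start is within the span of the gene given above, and which start the cells used was not tested. SLC7A5 lies at chr16:87869501-87869539 on the minus strand, with a match that begins 2 bases before the start and runs across it. The SLC3A2 match also holds TGACTCA, the letters of an AP-1 site. The same SLC3A2 window has a C/EBP-ATF match on the reverse strand 36 bases after that SLC3A2 start, in sequence that is not printed.
SLC3A2: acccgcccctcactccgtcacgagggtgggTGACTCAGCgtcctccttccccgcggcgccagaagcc
SLC7A5: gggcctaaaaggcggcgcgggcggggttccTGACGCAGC

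Carriers of cationic amino acids outside the SLC3A2 system were represented by SLC7A1 and SLC7A2. SLC7A1 (CAT1, chromosome 13), a main route of arginine uptake, rose by 0.91 ± 0.059 (edgeR adjusted p = 7.5e-09), from 17.9 ± 0.70 to 39.8 ± 4.90 TPM (SD, n = 3). Its lowest treated library, at 36.4 TPM, lay above its highest vehicle library, at 18.6 TPM. SLC7A2, an inducible arginine carrier, was scarce at 0.27 to 0.47 TPM in vehicle and 0.42 to 0.65 TPM in treated libraries, and these ranges overlapped (log2 change 0.32 ± 0.21, edgeR adjusted p = 0.21).

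The SLC1 family divides by substrate, and only its neutral exchangers were present at measurable levels. SLC1A5 (ASCT2), which exchanges glutamine and other neutral amino acids, had the highest vehicle level of the 32 genes at 160.5 ± 3.57 TPM and reached 239 ± 22.7 TPM, a log2 change of 0.34 ± 0.060 (edgeR adjusted p = 0.00018). SLC1A4 (ASCT1), which prefers alanine, serine and cysteine, went from 8.25 ± 0.73 to 18.1 ± 2.40 TPM (log2 change 0.87 ± 0.073, edgeR adjusted p = 1.2e-07). For both genes all treated libraries lay above all vehicle ones in TPM and scaled counts, beside 67.5% of all genes tested without overlap in scaled counts. The glutamate carriers SLC1A1 and SLC1A3 had 1 and 3 counts over the whole vehicle group and 0 in the treated group, at or under the floor of 3 counts, so no fold is given.

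Windows of SLC7A1 and SLC1A4 are shown as examples of genes that rose and hold a match. SLC1A5 and SLC38A1 also rose and hold C/EBP-ATF matches, which begin 97 and 4 bases before a start. SLC1A5 has an antioxidant response element core 111 bases before another start. Their windows are not printed. For SLC7A1, chr13:29595735-29595803 on the minus strand, the capitals mark an antioxidant response element core 85 bases before the start, and a C/EBP-ATF match follows 7 bases after the start. For SLC1A4, chr2:64989361-64989399 on the plus strand, they mark a C/EBP-ATF match on the reverse strand that begins 8 bases before one of its starts.
SLC7A1: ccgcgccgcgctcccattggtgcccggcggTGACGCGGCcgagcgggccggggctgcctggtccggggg
SLC1A4: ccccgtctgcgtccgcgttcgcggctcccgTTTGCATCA

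In the SLC38 family of sodium-coupled neutral amino acid transporters, 6 tested genes were filed as at the plasma membrane or of unsettled place. Of these 3 rose and 0 fell, beside 31.9% higher and 31.0% lower of all genes tested. SLC38A6, whose substrates are little characterised, had 20.5, 19.2 and 19.98 TPM in vehicle and 63.5, 52.2 and 63.9 TPM in treated libraries, a log2 change of 1.31 ± 0.070 (edgeR adjusted p = 9.2e-10). It shares 245 exonic bases with TRMT5 on the opposite strand. SLC38A5 (SNAT5), which moves glutamine, histidine and serine, had 9.55, 7.65 and 8.11 TPM in vehicle and 20.8, 16.8 and 21.7 TPM after treatment, a log2 change of 1.06 ± 0.094 (edgeR adjusted p = 2e-07). SLC38A1 (SNAT1), a glutamine importer, rose by 0.78 ± 0.054 from 22.01 ± 0.75 to 45.9 ± 4.96 TPM. None of these 3 genes had overlapping groups in TPM or scaled counts, beside 67.5% of all genes tested without overlap in scaled counts.

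SLC38A2 (SNAT2), an amino acid importer known to be induced by amino acid starvation, was not called. Its scaled counts were 401, 372 and 409 CPM in vehicle and 370, 351 and 398 CPM in treated libraries, which overlapped, and the log2 change was -0.078 ± 0.063 (edgeR adjusted p = 0.30). It was among the most abundant of the 32 genes at 125 ± 7.24 TPM in vehicle. In TPM the change had the opposite sign, at 0.20 on log2(TPM + 1) (limma adjusted p = 0.094). SLC38A10, a family member of the Golgi and ER whose role is little known, likewise differed in sign between the scales (-0.044 ± 0.069 from counts, edgeR adjusted p = 0.60, and 0.20 on log2(TPM + 1)). Without frankincense replicate 3 both were called lower, at -0.12 and -0.13 (edgeR adjusted p = 0.022 and 0.0086). SLC38A3, a glutamine carrier of liver and brain, was at 0.73 to 1.28 TPM in vehicle and 0.58 to 1.09 TPM after treatment and was not called (log2 change -0.36 ± 0.22). SLC38A4 had 24 counts over the vehicle group and 13 over the treated group and did not pass the filter.

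All 6 genes of the lysosome and endomembrane class were called higher, beside 31.9% of all genes tested, with log2 changes from 0.17 to 1.16. The class leaves out SLC38A10, the gene of the Golgi and ER described above, which was not called (-0.044 ± 0.069). It also holds only genes on the list. Of transporter genes not on the list, described below, CTNS rose by 1.33 ± 0.075, and SLC15A3, SLC66A2 and MFSD12 were not called. SLC38A9 (chromosome 5, 55625845 to 55773194), a lysosomal arginine sensor that acts on mTORC1 through the Rag GTPases, had 9.80, 8.78 and 9.07 TPM under vehicle and 22.7, 24.7 and 30.5 TPM under frankincense. Its log2 change was 1.16 ± 0.076 (edgeR adjusted p = 7.9e-09). SLC38A7 (SNAT7), which exports glutamine from lysosomes, had 11.3, 11.4 and 10.8 TPM and then 25.0, 24.2 and 30.8 TPM, a log2 change of 1.01 ± 0.068 (edgeR adjusted p = 1e-08). Treated libraries of both genes lay above 2 times the vehicle levels on the TPM scale. SLC66A1 (PQLC2), which exports cationic amino acids from lysosomes, had 17.8, 17.2 and 15.4 TPM in vehicle and 35.0, 37.2 and 43.4 TPM in treated libraries, a log2 change of 1.01 ± 0.069 (edgeR adjusted p = 1.4e-08).

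The proton-coupled carrier SLC36A1 (PAT1) was scarcer, at 1.92 ± 0.20 TPM, and rose by 0.96 ± 0.11 to 4.73 ± 1.02 TPM. SLC15A4, which carries histidine and small peptides, rose by 0.70 ± 0.062 from 15.2 ± 1.13 to 28.4 ± 1.83 TPM. Neither had overlapping groups in TPM or scaled counts, beside 67.5% of all genes tested without overlap in scaled counts. SLC36A4, a relative of SLC36A1, was only just called, at 0.17 ± 0.066 (edgeR adjusted p = 0.041). That call was lost without vehicle replicate 1 or 2 or frankincense replicate 1 or 3 (edgeR adjusted p of 0.17, 0.10, 0.057 and 0.057), and its adjusted p ranged from 0.0021 to 0.17 over the alternatives. The summed TPM of the class was 65.0 ± 1.92 in vehicle and 140.5 ± 16.6 after treatment (exact permutation p = 0.1), with no overlap.

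**Figure D4:**
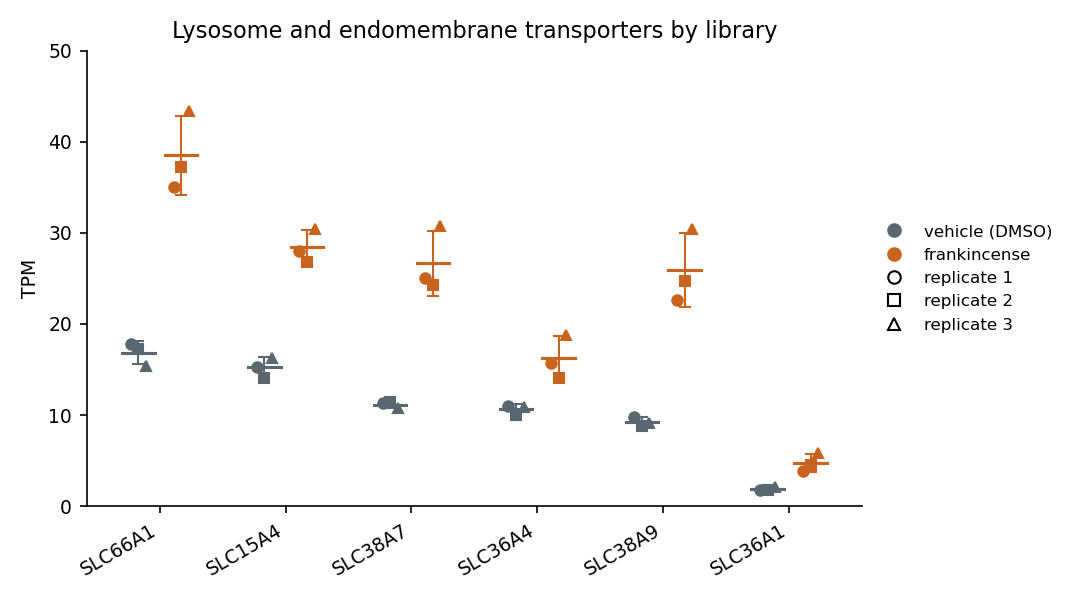
TPM of the 6 lysosome and endomembrane transporters in each of the 3 vehicle and 3 frankincense libraries, with the mean and SD. The treated libraries of SLC66A1 range from 35.0 to 43.4 TPM and those of SLC38A9 from 22.7 to 30.5 TPM, all above their vehicle libraries, and SLC36A4 has the smallest count-based log2 change of the 6, at 0.17.

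Windows of 3 lysosomal members are printed because each rose and holds a match. SLC36A1, chr5:151447564-151447602 on the plus strand, holds the E-box 9 bases before one of its starts. SLC66A1, chr1:19312203-19312325 on the plus strand, holds 3 antioxidant response element cores, 2 of them on the reverse strand. SLC15A4, chr12:128823959-128824010 on the minus strand, holds one core 22 bases before the start.
SLC36A1: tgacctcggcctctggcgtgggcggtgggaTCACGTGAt
SLC66A1: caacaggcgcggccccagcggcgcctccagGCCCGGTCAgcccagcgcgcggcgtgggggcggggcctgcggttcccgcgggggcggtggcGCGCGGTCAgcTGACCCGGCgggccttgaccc
SLC15A4: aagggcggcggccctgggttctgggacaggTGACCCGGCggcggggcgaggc

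The facilitative uniporters, which need no exchange partner or ion gradient, were higher in 3 of 3 tested genes, beside 31.9% of all genes tested. SLC43A3, a family member known to carry purine nucleobases rather than amino acids, was the most abundant of them and went from 69.3 ± 3.08 to 146.7 ± 24.4 TPM (log2 change 0.92 ± 0.074, edgeR adjusted p = 1.3e-07). Of its 4517 exonic bases, 1349 are shared with AP000781.2 on the same strand. SLC43A2 (LAT4) and SLC43A1 (LAT3), uniporters of large neutral amino acids, rose by 0.84 ± 0.069 and 0.43 ± 0.071. Treated and vehicle libraries did not overlap for these genes in TPM or scaled counts, beside 67.5% of all genes tested without overlap in scaled counts. SLC16A10 (TAT1), a uniporter of aromatic amino acids, had 8 counts over the vehicle group and 7 over the treated group and was not tested.

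Among the sodium- and chloride-coupled SLC6 carriers, SLC6A9 and SLC6A15 rose and SLC6A6 fell. SLC6A9 (GlyT1), a glycine importer, had 0.90, 0.62 and 0.91 TPM in vehicle and 3.23, 2.58 and 3.06 TPM in treated libraries. Its log2 change of 1.64 ± 0.16 (edgeR adjusted p = 4.8e-07) came next after that of SLC3A2 among the 28 genes tested, on a low level. SLC6A9 shares 404 of 5159 exonic bases with CCDC24 on the opposite strand. SLC6A15 (B0AT2), an importer of branched-chain amino acids and proline, had 9.65, 10.8 and 10.1 TPM and then 24.3, 26.3 and 28.7 TPM, a log2 change of 1.19 ± 0.065 (edgeR adjusted p = 1.2e-09).

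SLC6A6 (TauT), the taurine carrier, moved the other way in counts. Its scaled counts were 91.4, 86.0 and 95.9 CPM in vehicle and 69.6, 70.6 and 80.2 CPM in treated libraries, without overlap, and it fell by 0.31 ± 0.063 (edgeR adjusted p = 0.00062). In TPM the groups overlapped, at 17.8 ± 1.04 and 17.3 ± 2.20, and the change on log2(TPM + 1) was -0.039 (limma adjusted p = 0.76). The plot of count-based against TPM-based changes shows this offset for the whole list.

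**Figure D5:**
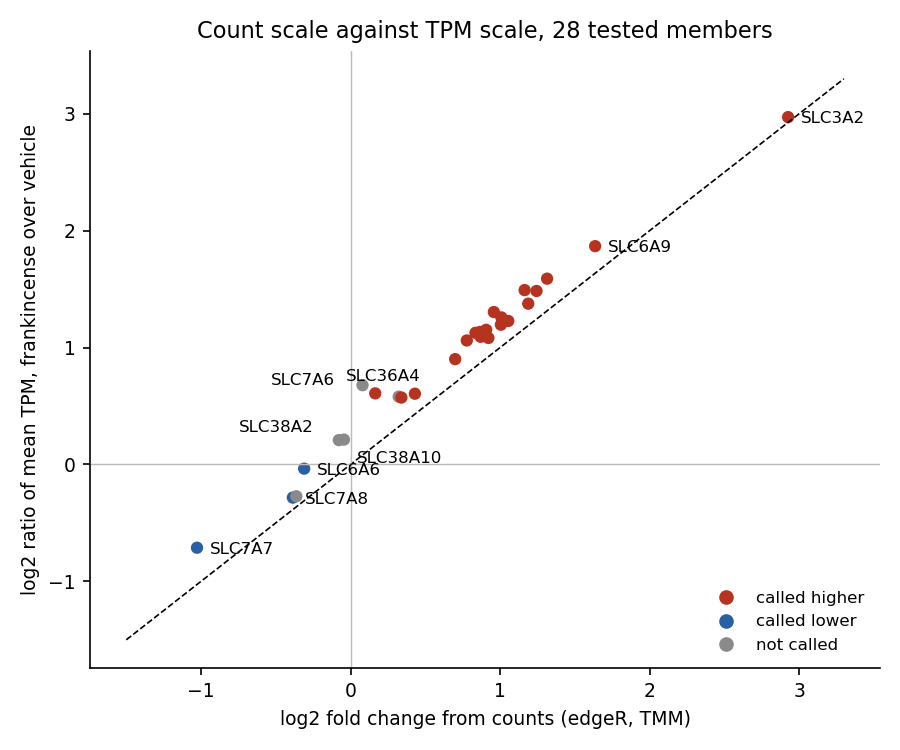
Log2 ratio of mean TPM against the count-based log2 fold change for the 28 tested transporter genes, with the line of equality dashed and points coloured by the edgeR call. SLC7A6 lies furthest above the line, with a count-based change of 0.080, and SLC38A2 and SLC38A10 lie below 0 on the count axis and above 0 on the TPM axis.

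Read by substrate, 4 of 5 tested carriers of large neutral amino acids rose and 1 fell, and 8 of 10 carriers of small neutral amino acids or glutamine rose with 0 lower. Of the 5 cationic carriers 2 rose and 1 fell. By coupling, 17 of the 22 tested genes that do not pair with SLC3A2 rose and 1 fell, and 2 of the 5 light chains rose and 2 fell. The background of 31.9% higher and 31.0% lower applies to each of these counts. In TPM, carriers of large neutral amino acids summed to 63.6 ± 1.21 in vehicle and 149 ± 14.3 after treatment, and those of small neutral amino acids or glutamine to 349.9 ± 12.0 and 518 ± 58.6.

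Another 30 amino acid transporter genes that are not on the list were mostly silent in these cells, and 7 of them could be tested. Of these 2 rose and 1 fell, against 31.9% higher and 31.0% lower over all genes tested, so the counts do not set this list apart. CTNS, the lysosomal cystine exporter cystinosin, rose by 1.33 ± 0.075 from 10.6 ± 0.37 to 35.2 ± 5.27 TPM (edgeR adjusted p = 1.7e-09). SLC6A17, a vesicular neutral amino acid carrier, rose by 1.27 ± 0.15 to 1.14 ± 0.18 TPM. SLC15A3 and SLC66A2, of the same families as SLC15A4 and SLC66A1, were not called, at -0.13 ± 0.075 and 0.078 ± 0.069. MFSD12, at 67.5 TPM in vehicle, was not called either (0.007 ± 0.049). SLC6A8, the creatine carrier, was called lower at -0.28 ± 0.11 (edgeR adjusted p = 0.033), a call lost when any single library other than vehicle replicate 2 was left out, and on log2(TPM + 1) it changed by 0.169.

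A list of 15 genes of the amino acid sensing pathway at the lysosome held sensors, SLC38A9 included, and other parts of that pathway. Of these 15 genes 7 rose and 5 fell, beside 31.9% and 31.0% of all genes tested. The Rag GTPases RRAGD and RRAGC, which recruit mTORC1 to the lysosome, rose by 3.09 ± 0.28 and 1.14 ± 0.064. RRAGD passed the filter only through the treated libraries, at 0.070 ± 0.010 TPM in vehicle and 1.23 ± 0.25 TPM after treatment. It could enter the test only by being higher, so its rise adds no support to the count of 7. Its log2 change ranged from 1.05 to 3.25 over the alternatives. Of the other Rag genes, RRAGA was called lower at -0.28 ± 0.070 (edgeR adjusted p = 0.0029) and RRAGB was not called at 0.17 ± 0.097 (edgeR adjusted p = 0.15). CASTOR2 and CASTOR1, cytosolic arginine sensors of the same pathway, fell by 1.71 ± 0.066 and 1.07 ± 0.16, CASTOR2 being uncertain because CASTOR3P is a similar copy. LAMTOR5, a subunit of the Ragulator anchor, fell by 0.46 ± 0.093. The 5 LAMTOR genes thus did not change as one: LAMTOR1 was called higher at 0.38 ± 0.059.

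Among 13 regulators known to act on transporter genes, 8 rose and 2 fell, where all genes tested gave 31.9% higher and 31.0% lower. The largest rises were those of DDIT3 (CHOP) at 2.50 ± 0.076, of CEBPG, a dimer partner of ATF4, at 1.46 ± 0.070, and of EIF2AK3 (PERK), an eIF2-alpha kinase, at 1.32 ± 0.15. NFE2L2, the gene of NRF2, changed by 0.29 ± 0.061 (edgeR adjusted p = 0.0009). ATF4 itself, named like NFE2L2 outside the ranking, went from 303 ± 1.98 to 511 ± 33.0 TPM, a log2 change of 0.50 ± 0.074 (edgeR adjusted p = 4e-05). TFEB, a regulator of lysosomal genes, fell by 0.63 ± 0.13 from 3.74 ± 0.41 to 2.62 ± 0.12 TPM. The related factor TFE3 was called higher at 0.35 ± 0.050 (edgeR adjusted p = 2.5e-05), from 40.5 ± 0.83 to 59.8 ± 1.65 TPM. EIF2AK4 (GCN2), the kinase that responds to uncharged tRNA, was called lower at -0.15 ± 0.061 (edgeR adjusted p = 0.048), a call lost without vehicle replicate 2 or 3 or frankincense replicate 1 or 2 and with a change of 0.061 on log2(TPM + 1).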

How the data were processed

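The authors' deposited tables give RSEM expected counts, which are estimated reads per gene and need not be whole, and, per the file headers, TPM, FPKM and the abundance-weighted transcript length of each gene. The tools named per the submitters' processing notes were STAR and RSEM 1.3.1, with the build GRCh38. Which STAR version, annotation and filters on reads applied is not given in the sources used here. FPKM was not used further. RSEM divides reads among similar genes, so values of near-identical copies are uncertain.

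Expected counts were rounded and tested with edgeR 4.0.16 (R 4.3.3): filterByExpr, TMM, robust legacy glmQLFit and glmQLFTest, two-sided, Benjamini-Hochberg over 16719 genes, called under 0.05. The SE is the absolute log2 change over the square root of F. Scaled CPM divides counts by the TMM-scaled library size. The step was also run on simulated counts with few changed genes, as many up as down, and the same dispersion for every gene. These libraries differ from that setting, with 62.9% of genes tested called, so the run does not give the error rate here. Limma 3.58.1 and DESeq2 1.42.0 served as alternatives. Symbols came from the gene name table and coordinates from GENCODE 29 (GRCh38).

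Libraries differed from each other by more than sampling noise (chi-square per degree of freedom 3.83 to 13.83 within groups), so each was counted once. The members, gene lists, motifs and naming rule were chosen with earlier results of these data known. All 32 members are described, with values by library for SLC3A2, its light chains and called members with an absolute log2 change of at least 1 and at least 1 TPM in the higher group, and by library also for some that depend on the scale. From other lists up to 3 called rises and 3 called falls are named. ATF4, NFE2L2, TFE3, RRAGA, RRAGB, LAMTOR1, SLC15A3, SLC66A2, MFSD12, VIM, CD68 and PTPRC are named besides, after their values were seen.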

Additional observations from a re-analysis of the deposited data

How the results depend on the processing

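Of the 28 tested transporter genes, 22 kept their direction and their side of the threshold under each alternative run for them, up to 18 a gene. The exceptions were SLC36A4, SLC38A10, SLC38A2, SLC6A6, SLC7A6 and SLC7A8. Genes called higher numbered 19 to 21 and the median log2 change was 0.80 to 0.88 when single libraries were left out; genes called lower numbered 3 to 5. Light chains called higher numbered 2 to 3 in the same settings and the log2 change of the SLC3A2 to light chain ratio 1.83 to 1.90. On log2(TPM + 1) and log2(TPM + 0.1) genes called lower numbered 1 and the median was 1.03 and 1.07; 74.8% of all called genes were higher there, against 50.7% on counts. With CPM, which is not divided by length, in place of TPM, the log2 change of the ratio was 2.09. The reason for this shift was not tested. On those TPM scales the sign turned for SLC38A2 (0.20 and 0.201), SLC38A10 (0.203 and 0.205), SLC6A8 (0.169 and 0.215), EIF2AK4 (0.061 and 0.063) and CD44 (0.009 in both). It also turned on TPM rescaled without mitochondrially encoded genes, an alternative chosen after seeing the data, for SLC38A2 (0.016), SLC38A10 (0.02) and SLC6A8 (0.031), and for SLC38A10 with library size only (0.033). Leaving out single libraries gave -0.132 to 0.017 for SLC38A10, the last without frankincense replicate 2. The cause was not tested. LAPTM4B lost its call without any one vehicle library (edgeR adjusted p of 0.064, 0.11 and 0.069).

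Vehicle and frankincense libraries share replicate numbers. Deviations from the group means correlated at 0.050, 0.101 and 0.035 between same-numbered libraries, so the numbers were not taken as pairs, although each library correlated best with its own number. With the replicate block 20 genes were called higher and 3 lower, and the median was 0.851. Depth limits the 4 untested genes and SLC7A2, SLC38A3 and SLC7A7, whose values rest on few counts.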

Other observations

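Of 8 tested genes for proteins that stabilise or remove transporters, 3 were called higher and 2 lower, close to the 31.9% and 31.0% of all genes tested. ARRDC3, an arrestin-like adaptor of ubiquitin ligases, rose by 0.54 ± 0.057, and NEDD4, a ubiquitin ligase that acts on membrane proteins, by 0.42 ± 0.076. CD44, known to stabilise the cystine carrier at the cell surface, was lower in counts at -0.67 ± 0.063 and at 210.1 ± 15.3 and 213 ± 33.9 TPM in the groups. BSG (basigin), a chaperone of monocarboxylate transporters, fell by 0.39 ± 0.055.

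The transcript length assigned to SLC3A2 was 1502, 1508 and 1501 bases in the vehicle libraries and 1701, 1690 and 1723 bases in the treated libraries (exact permutation p = 0.1), so the make-up of its transcripts in these tables differed between the groups. SLC36A1 went from 5772 to 5434 ± 62.7 bases.

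Markers of the labelled cell type and of other cells were read as levels. KRT8 and KRT18, keratins of simple epithelia, stood at 771 and 661 TPM in vehicle, CDH1, the epithelial cadherin, at 0.133 TPM, and VIM, the mesenchymal filament vimentin, at 2048 TPM. The 6 epithelial markers summed to 1574 to 1605 TPM in vehicle and 1361 to 1419 TPM after treatment, a sum carried by KRT8 and KRT18. Of the 5 epithelial markers tested, 3 were called lower and 2 higher, where all genes tested gave 31.0% lower and 31.9% higher. Those called higher were KRT7, from 5.84 to 13.2 TPM (log2 change 0.94 ± 0.19, edgeR adjusted p = 0.00049), and EPCAM, from 1.12 to 1.97 TPM (0.72 ± 0.22, edgeR adjusted p = 0.0098, and 0.071 with DESeq2). The 6 stromal markers were all called lower, beside 31.0% of all genes tested. They summed to 3867 to 3950 TPM in vehicle and 2787 to 2974 TPM in treated libraries. The 5 endothelial markers summed to at most 0.27 TPM in any library, with CDH5 listed at 0 in all. Of the immune markers, CD3E was listed at 0 in all libraries, PTPRC was at 0.17 TPM or less in both group means, and CD68 made up most of a sum of 30.3 to 33.8 TPM in vehicle and 35.3 to 64.0 TPM in treated libraries. CD68 was not called (edgeR adjusted p = 0.079). CD14, the immune marker that was called, fell by 2.96 ± 0.28 from 2.53 to 0.41 TPM (edgeR adjusted p = 3.9e-07). The part of these changes in the transporter results was not tested.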
